A study of Mus musculus with 9 samples.

Results

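The genes described here encode the nuclear subunits of the oxidative phosphorylation system, the respiratory chain and ATP synthase of the inner mitochondrial membrane. They were taken by symbol: every nuclear mouse gene whose symbol begins with Nduf, Uqcr or Atp5, the genes Sdha to Sdhd, Cycs and Cyc1, and the subunit genes Cox4 to Cox8. The rule found 96 of the 24170 genes in the count tables. Of these, 36 encode subunits of complex I, 4 of complex II, 9 of complex III, 20 of complex IV and 17 of complex V, and 1 encodes cytochrome c. A further 8 are the complex I assembly factors Ndufaf1 to Ndufaf8, and 1, Ndufs5-ps, is an annotated pseudogene. The rule itself used no measured value, but the members were chosen with earlier results of these data known.

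The study measured poly(A) RNA, as stranded mRNA libraries, in 3 kinds of primary mouse culture with 3 libraries each. Dorsal root ganglion (DRG) cultures held sensory neurons from embryos at E13.5 (days after conception), kept for about 2 weeks. Oligodendrocyte precursor cells (OPC), which give rise to myelinating cells, came from the cortex of pups of either sex at postnatal day 6 to 9 and were kept for 6 to 7 days. Astrocytes came from the cortex of pups of either sex at postnatal day 1 to 3 and grew for about 21 days, until confluent. The labels name no strain, genotype or treatment, and they number the libraries without saying that they came from separate animals, so p-values measure the spread between these libraries. Donor age, tissue and time in culture differed together with cell type and cannot be told apart from it.

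Complex I (NADH dehydrogenase) and complex II (succinate dehydrogenase) pass electrons to ubiquinone, complex III passes them to cytochrome c, and complex IV (cytochrome c oxidase) passes them to oxygen. Complexes I, III and IV pump protons, and complex V (ATP synthase) uses the returning protons to make ATP. Several complex IV subunits exist as isoforms from separate genes, 1 used in most tissues and another known mainly from heart and skeletal muscle, lung or testis. Neurons and glia are both known to hold the whole chain, and astrocytes in culture are known for a high rate of glycolysis.

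Levels are given as CPM, read counts relative to library sizes that were scaled by the trimmed mean of M values (TMM). Assigned counts were 30710093 to 53594210 per library, and the 96 genes took 1.55 to 1.74% of them in DRG cultures, 1.83 to 2.66% in OPC and 1.11 to 1.26% in astrocytes. Of the 96, 92 passed the filter on low counts, and Cox7a2l, Cox7b2, Cox8c and Ndufv2 did not. Per the deposited files, reads were counted by transcript and up to 24.7% of them per library stand in a row of their own as ambiguous, so the 10 genes with several transcripts are taken as measured only by reads specific to 1 transcript. Tests were edgeR's quasi-likelihood test, adjusted over all 14848 genes tested, with a threshold of 0.05, and errors of log2 fold changes are SE. The summed markers of each labelled cell type were highest in its own cultures: 12 DRG neuron genes summed to 12395 to 14233 CPM in DRG cultures and at most 245 CPM in the others, 10 OPC genes to 5116 to 6943 CPM in OPC and at most 1312 CPM in the others, and 10 astrocyte genes to 6771 to 8639 CPM in astrocytes and at most 1436 CPM in the others. Of these markers, 11 of 12, 8 of 10 and 7 of 10 were above all other libraries in every library of their own cell type. The exceptions were Prph of the DRG neuron list, C1ql1 and Lhfpl3 of the OPC list and Slc1a2, Aldoc and S100b of the astrocyte list. Prph had 0 counts in all 9 libraries, which is not read as absence. S100b was at 563, 639 and 922 CPM in DRG cultures, 31.1, 3.32 and 2.57 CPM in OPC and 71.2, 26.5 and 53.2 CPM in astrocytes. For these genes, 2 libraries of the glia stood apart. In OPC replicate 3, 89 of the 92 genes were above the mean of the other 2 OPC libraries, with a median log2 ratio of 0.47, against 0.01 over all genes and 0.38 over 997 genes with transcripts of at most 1000 nt. The 96 genes are short, with a median transcript of 763 nt against 2220 nt for all genes. The 10 microglia genes summed to 209.7 CPM in OPC replicate 3, against 17.7 and 56.1 CPM in the other 2 OPC libraries, and their part in the calls against OPC was not tested. In astrocytes replicate 1 the median ratio was -0.21, and the microglia genes summed to 2811 CPM there, against 457 and 491 CPM in the other 2 astrocyte libraries. That library also differed in 10 cell cycle genes (351 CPM, against 2370 and 1689 CPM). Its 14 fibroblast and mural genes summed to 1161 CPM, against 8258 and 9750 CPM. Counts of genes are therefore also given without OPC replicate 3 and astrocytes replicate 1. OPC replicate 1 differed in single markers, with Gpr17 at 786 CPM, against 9.44 and 9.84 CPM in OPC replicates 2 and 3.

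Astrocytes held the lowest summed level of these genes, and DRG cultures and OPC lay close to each other. The 96 genes summed to 18035, 17921 and 17558 CPM in DRG replicates 1 to 3, to 18859, 18964 and 26208 CPM in OPC and to 10118, 11427 and 11606 CPM in astrocytes. Every DRG and OPC library lay above every astrocyte library. The ratio of means was 1.61 for DRG over astrocytes, 1.93 for OPC over astrocytes (1.71 without OPC replicate 3) and 0.836 for DRG over OPC (0.943 without it). In bulk samples, fewer cells of a type and less RNA per cell cannot be told apart. A list of 10 cell cycle genes summed to 60.4 to 68.1 CPM in DRG cultures, 3515 to 6144 CPM in OPC and 351 to 2370 CPM in astrocytes; 6 of the 10 had a mean of at least 1 CPM in DRG cultures, 10 in OPC and 9 in astrocytes. The part of cell division in these sums was not tested.

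By complex, the ratio of DRG over astrocytes was lowest for complex II and highest for cytochrome c and complex IV. Complex I summed to 3953 ± 323 CPM in DRG cultures, 4640 ± 952 CPM in OPC and 2519 ± 103 CPM in astrocytes (SD, n = 3 each). Complex II summed to 1058 ± 61.5 CPM in DRG cultures, 1241 ± 173 CPM in OPC and 922 ± 60.4 CPM in astrocytes, so that its DRG over astrocyte ratio was 1.15. Complex III summed to 1844 ± 82.1 CPM in DRG cultures, 2217 ± 412 CPM in OPC and 1284 ± 85.0 CPM in astrocytes. The DRG over astrocyte ratio was 1.57 for complex I and 1.44 for complex III. Complex IV summed to 3610 ± 319 CPM in DRG cultures, 3826 ± 816 CPM in OPC and 1768 ± 242 CPM in astrocytes. Complex V, which took the largest share, summed to 6717 ± 261 CPM in DRG cultures, 8810 ± 1797 CPM in OPC and 4205 ± 458 CPM in astrocytes. The DRG over astrocyte ratio was thus 2.04 for complex IV and 1.60 for complex V. Complex V was the complex with the lowest ratio of DRG over OPC, 0.762 with all libraries and 0.864 without OPC replicate 3.

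**Figure D1:**
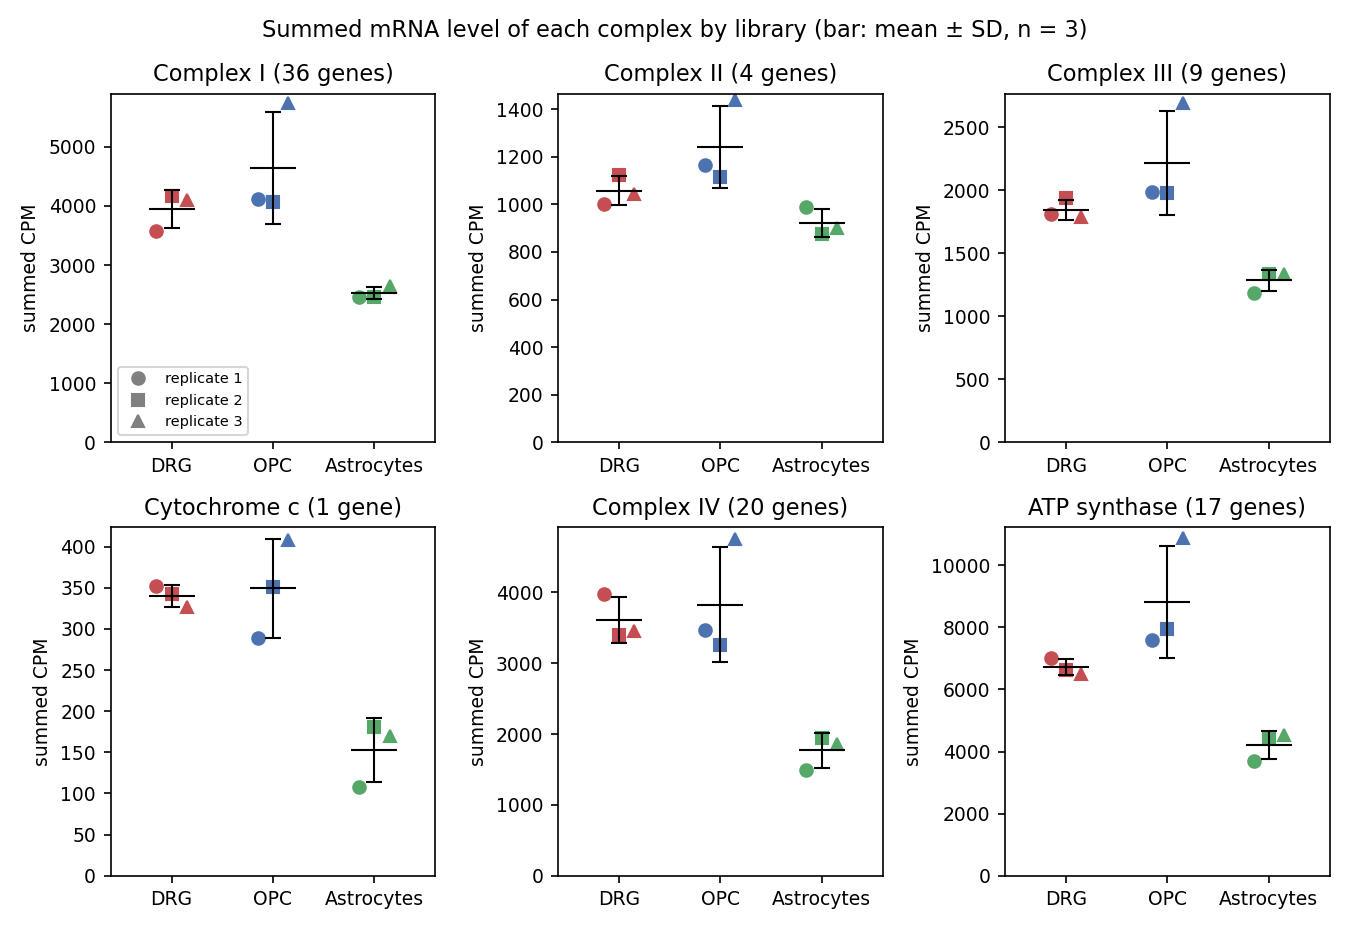
Summed level (CPM, linear axis from 0) of the genes of each complex in every library of DRG cultures, OPC and astrocytes, with circles, squares and triangles for replicates 1, 2 and 3 and bars for mean ± SD (n = 3). Over all genes the OPC libraries run from 18859 to 26208 CPM, with replicate 3 highest, and the astrocyte libraries from 10118 to 11606 CPM.

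Gene by gene, 51 of the 92 tested genes were higher in DRG cultures than in astrocytes and 5 were lower. Over all genes tested, 27.4% were called higher and 32.8% lower. The median log2 fold change was 0.65 over the 92 genes and -0.13 over all genes, and 22 genes were higher and 2 lower by at least 2-fold, against 22.1 and 28.2% of all genes. The genes called higher were 17 of 35 in complex I, 1 of 4 in complex II, 4 of 9 in complex III, cytochrome c, 12 of 17 in complex IV, 13 of 17 in complex V, 2 of 8 assembly factors and the pseudogene. With library size alone as the scaling, the medians were 0.39 over the 92 genes and -0.39 over all genes, a shift that both share.

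OPC against astrocytes gave the most calls, 74 of 92 higher and 3 lower, where 26.3% of all genes were called higher and 25.5% lower. The median was 0.92 over the 92 genes and 0.09 over all genes. Higher in OPC were 27 of 35 complex I genes, 3 of 4 in complex II, 9 of 9 in complex III, cytochrome c, 14 of 17 in complex IV, 16 of 17 in complex V, 3 of 8 assembly factors and the pseudogene. Without OPC replicate 3, 53 of the 74 calls were kept, and that fit called 13 genes of complex I, 5 of complex III and 16 of complex V higher.

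DRG cultures against OPC gave 8 higher and 23 lower, where 28.4% of all genes were called higher and 31.1% lower. The members' own shares, 8.70% higher and 25.0% lower, were below both. The median was -0.27 over the 92 genes and -0.08 over all genes, and without OPC replicate 3 it was 0.14 and 0.15. Lower in DRG cultures were 9 genes of complex I, Sdhc in complex II, Uqcrb in complex III, 3 genes of complex IV, 7 of complex V and 2 assembly factors. Only 12 of these 23 calls were kept without OPC replicate 3, and that fit called 22 genes higher and 12 lower. With the trend against transcript length removed, the median over the 92 genes was 0.13, and 18 were called higher and 13 lower.

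**Figure D2:**
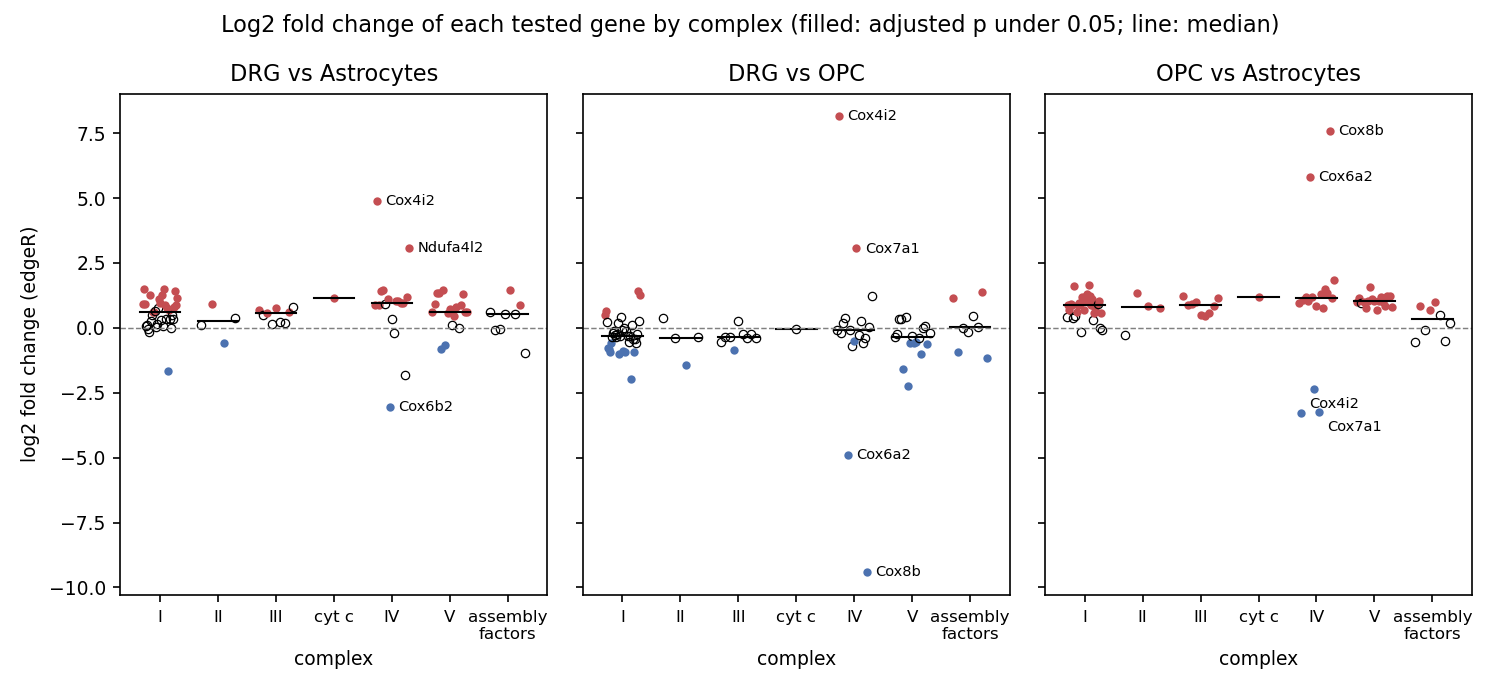
Log2 fold change of each tested gene, by complex, for DRG over astrocytes, DRG over OPC and OPC over astrocytes; filled points passed the threshold (red higher, blue lower) and the line is the median of the complex. The medians are above 0 in every complex against astrocytes, and the Cox8b point in DRG over OPC is a fitted value against 0 counts.

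In complex I, the enzyme that oxidises NADH, the accessory subunits Ndufa10 and Ndufb8 had the largest fold changes of DRG cultures over astrocytes. Ndufa10, an accessory subunit of the matrix arm, was at 299, 293 and 309 CPM in DRG replicates 1 to 3, 185, 175 and 219.6 CPM in OPC and 101, 104 and 113 CPM in astrocytes. The 3 cell types did not overlap, with DRG cultures highest and astrocytes lowest. Ndufa10 was higher in DRG cultures by 1.50 ± 0.15 log2 against astrocytes (adjusted p = 3.98e-05) and by 0.64 ± 0.15 against OPC (adjusted p = 0.00479; 0.99 without OPC replicate 3). Ndufb8, an accessory subunit of the membrane arm and, among genes with 1 transcript, the most abundant of complex I per length in DRG cultures and OPC but not in astrocytes, was at 258, 301 and 253 CPM in DRG cultures, 221, 283 and 389 CPM in OPC and 87.6, 91.5 and 108 CPM in astrocytes. Astrocytes lay below all other libraries, while DRG cultures and OPC overlapped. Ndufb8 was higher by 1.50 ± 0.22 log2 in DRG cultures (adjusted p = 0.000401) and by 1.64 ± 0.22 in OPC (adjusted p = 0.000395), each against astrocytes. Ndufa5, another accessory subunit, was at 103, 80.5 and 82.4 CPM in DRG cultures, 99.8, 110.4 and 130.0 CPM in OPC and 31.6, 41.5 and 37.3 CPM in astrocytes, again with astrocytes apart from the rest. Its log2 fold changes against astrocytes were 1.27 ± 0.19 in DRG cultures (adjusted p = 0.000365) and 1.62 ± 0.19 in OPC (adjusted p = 0.000163).

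Not every complex I subunit took part in this difference. Ndufb11, an X-linked membrane arm subunit, was at 117, 121 and 134 CPM in DRG cultures, 228, 212 and 315 CPM in OPC and 97.8, 113 and 121 CPM in astrocytes. OPC stood apart, and DRG cultures and astrocytes overlapped. Ndufb11 was lower in DRG cultures than in OPC, with a log2 fold change of -1.02 ± 0.19 (adjusted p = 0.00135; -0.58 without OPC replicate 3). Ndufs4, whose loss in mice gives a model of Leigh syndrome, had a like order, at 75.8, 92.3 and 94.4 CPM in DRG cultures, 167, 142 and 189.9 CPM in OPC and 78.2, 94.6 and 91.0 CPM in astrocytes. Its log2 fold change was -0.93 ± 0.17 for DRG cultures over OPC (adjusted p = 0.00148; -0.57 without OPC replicate 3) and 0.92 ± 0.17 for OPC over astrocytes (adjusted p = 0.00213). Ndufb10, a further membrane arm subunit, passed the threshold in no comparison, with 133, 129 and 113 CPM in DRG cultures, 106, 95.2 and 129 CPM in OPC and 141, 95.7 and 131 CPM in astrocytes. Ndufb11, Ndufs4 and Ndufb10 were picked after their values were seen.

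Of the 7 core subunits of complex I, which carry its cofactors, 6 could be tested. Of these, 4 were called higher and 1 lower in DRG cultures than in astrocytes, and 4 higher in OPC than in astrocytes. Ndufv1, the subunit that binds NADH, was at 202, 275 and 259 CPM in DRG cultures, 169, 189 and 249.7 CPM in OPC and 134, 125 and 144 CPM in astrocytes, which lay below both. The log2 fold change of Ndufv1 in DRG cultures over astrocytes was 0.87 ± 0.20 (adjusted p = 0.00431); it was picked after its values were seen. The core gene called lower, Ndufs1, an iron-sulfur subunit, was read only through 1 of its 4 transcripts and at most 0.94 CPM, so this says nothing of its main transcripts. Its log2 fold change in DRG cultures was -1.65 ± 0.45 over astrocytes (adjusted p = 0.0103; 0.0525 without DRG replicate 2) and -1.96 ± 0.44 over OPC (adjusted p = 0.00426).

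**Figure D3:**
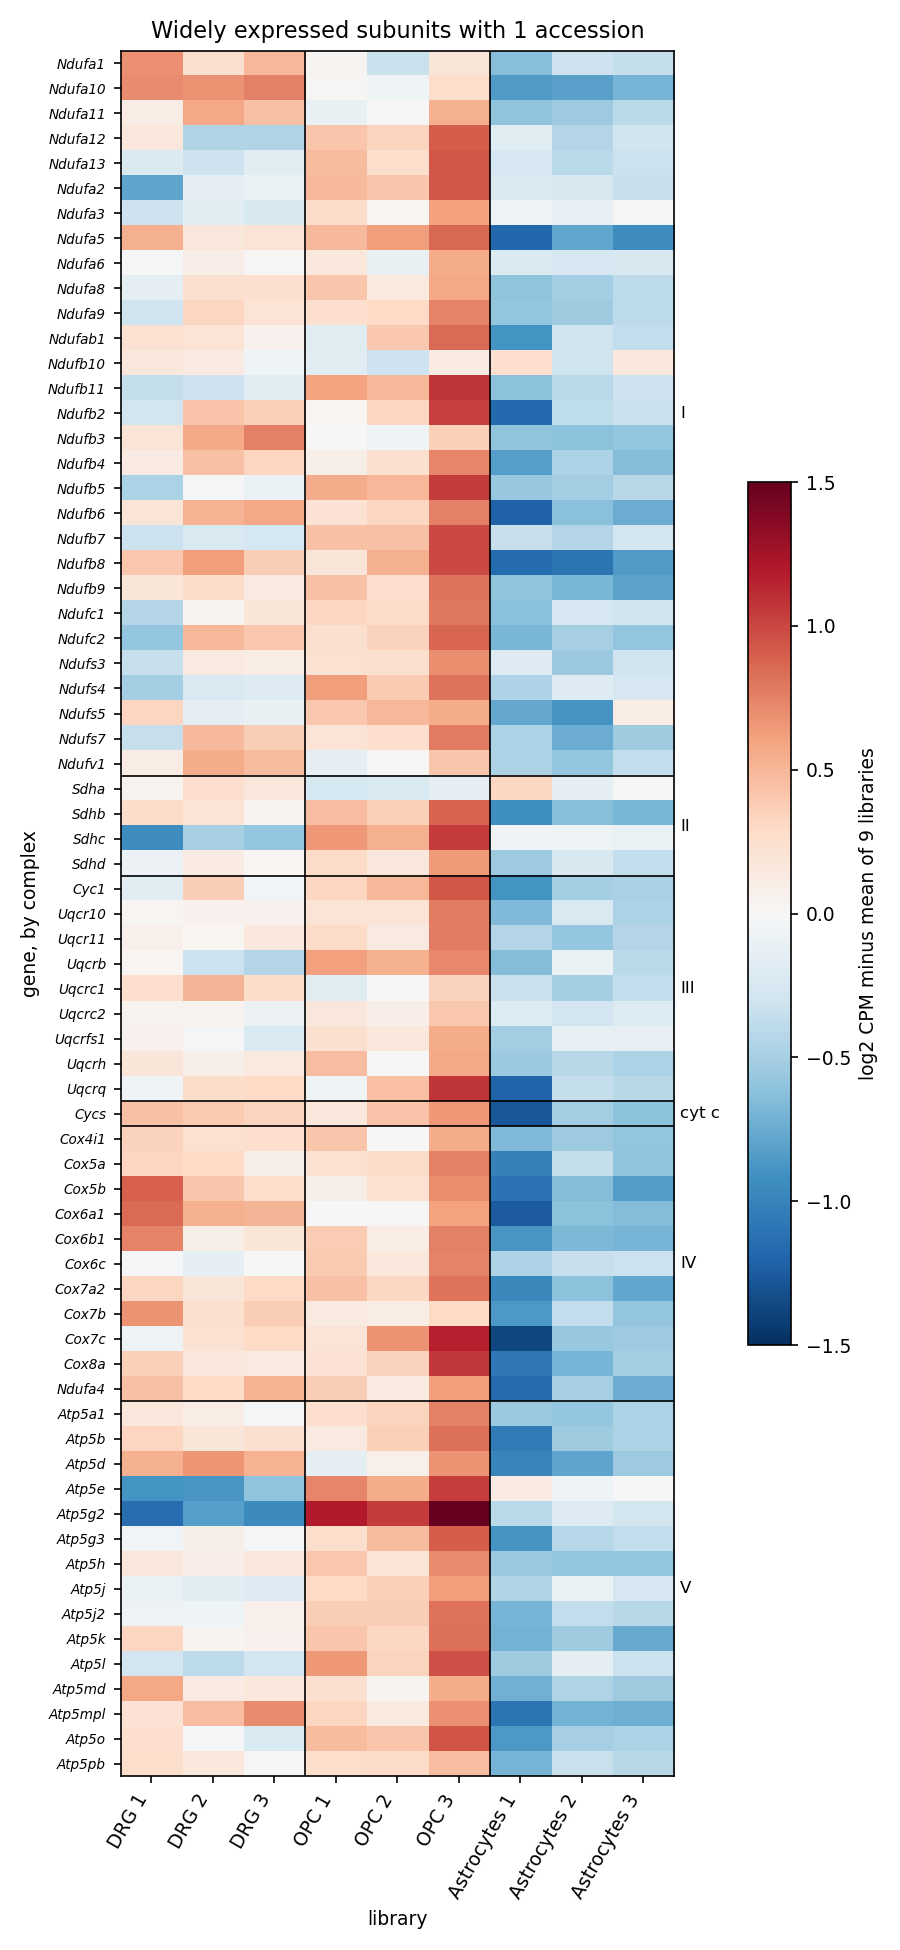
Level of 69 widely expressed subunit genes with 1 transcript, as log2 CPM minus the mean of the 9 libraries (color scale -1.5 to 1.5), with genes in rows by complex and libraries in columns. In 47 of the 69 rows every astrocyte library is below the other 6 libraries, and 56 rows are highest in OPC replicate 3.

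The 4 subunits of complex II, the enzyme shared with the citric acid cycle, did not move together. Sdha, the flavoprotein that oxidises succinate, was at 498, 572 and 538 CPM in DRG cultures, 400.5, 409 and 435 CPM in OPC and 596, 432 and 474 CPM in astrocytes, and passed the threshold in no comparison. Sdhb, the iron-sulfur subunit, was at 243, 232 and 207 CPM in DRG cultures, 277, 258 and 370.4 CPM in OPC and 107, 129 and 125 CPM in astrocytes. Astrocytes were lowest for Sdhb, without overlap. Sdhb was higher than in astrocytes by 0.92 ± 0.18 log2 in DRG cultures (adjusted p = 0.00212) and by 1.33 ± 0.18 in OPC (adjusted p = 0.000432). Sdhc and Sdhd are the membrane anchors that hold heme and bind ubiquinone. Sdhd was at 176, 203 and 191 CPM in DRG cultures, 229, 211 and 291 CPM in OPC and 129, 159 and 146 CPM in astrocytes. The groups of Sdhd did not overlap, and its log2 fold change was 0.40 ± 0.17 in DRG cultures over astrocytes (adjusted p = 0.0727; 0.49 and 0.0141 without OPC replicate 3) and 0.76 ± 0.17 in OPC over astrocytes (adjusted p = 0.00573; 0.45 without OPC replicate 3).

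Sdhc ran against its partner, with the lowest values in DRG cultures. It was at 86.1, 117 and 111 CPM in DRG cultures, 260.1, 239 and 342 CPM in OPC and 159.5, 156 and 154 CPM in astrocytes. No groups overlapped. Sdhc was lower in DRG cultures than in OPC, with a log2 fold change of -1.42 ± 0.19 (adjusted p = 0.000219). Against astrocytes its log2 fold change was -0.58 ± 0.19 (adjusted p = 0.0229), which passed neither without astrocytes replicate 2 or 3 nor without DRG replicate 1 or 3 (adjusted p = 0.0517 to 0.0712), and neither with RLE size factors (0.0501) nor with the length trend removed (0.0758). OPC were above astrocytes by 0.84 ± 0.19 log2 (adjusted p = 0.00514), or 0.51 without OPC replicate 3.

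In complex III and at cytochrome c, all 10 genes had a positive log2 fold change against astrocytes in DRG cultures and in OPC. Among the genes checked with library size alone, Uqcrb and Uqcrfs1 in DRG cultures turned to -0.11 and -0.073. Uqcrh, the hinge subunit near cytochrome c1 and the most abundant complex III gene per length, was at 263, 246 and 256 CPM in DRG cultures, 320.3, 233 and 344 CPM in OPC and 158, 173 and 167 CPM in astrocytes. Uqcrc1, a core subunit, was at 369.9, 441 and 377 CPM in DRG cultures, 275, 311 and 396 CPM in OPC and 246, 217 and 241 CPM in astrocytes. Astrocytes were lowest for both genes, and DRG cultures and OPC overlapped. The log2 fold changes of DRG cultures over astrocytes were 0.62 ± 0.17 for Uqcrh (adjusted p = 0.0124; 0.36 and 0.0892 with library size alone) and 0.76 ± 0.18 for Uqcrc1 (adjusted p = 0.00538; 0.49 with library size alone), which was picked after its values were seen. Cyc1, which carries the heme of cytochrome c1, was at 167, 244 and 184 CPM in DRG cultures, 235, 266 and 360.4 CPM in OPC and 102, 133 and 135 CPM in astrocytes. It was higher by 1.22 ± 0.23 log2 in OPC than in astrocytes (adjusted p = 0.00198), and by 0.69 ± 0.23 in DRG cultures (adjusted p = 0.0249), a call lost without astrocytes replicate 1 (adjusted p = 0.0765) or DRG replicate 2 (adjusted p = 0.0963) or with library size alone (0.42, adjusted p = 0.124). Cycs, cytochrome c itself, the mobile carrier that also triggers apoptosis when released, was at 352, 342 and 326 CPM in DRG cultures, 289, 351 and 408 CPM in OPC and 108, 180.4 and 169 CPM in astrocytes. Astrocytes lay apart from the rest. Cycs was higher than in astrocytes by 1.16 ± 0.22 log2 in DRG cultures (adjusted p = 0.00177) and by 1.19 ± 0.22 in OPC (adjusted p = 0.00205), and DRG cultures over OPC gave -0.04 ± 0.22 (adjusted p = 0.892).

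Complex IV was split between the 11 broadly expressed subunits and isoforms known from other tissues. Of the 11, 10 were higher in DRG cultures than in astrocytes, with a median log2 fold change of 1.03, and 11 were higher in OPC than in astrocytes; DRG cultures against OPC gave 1 lower, Cox6c (none with DESeq2), and 0 higher (0 with DESeq2 and 0 at an unadjusted p under 0.05; 3 without OPC replicate 3). Cox4i1, the common isoform of subunit IV, was at 573, 528 and 539 CPM in DRG cultures, 605, 453 and 666 CPM in OPC and 285, 309 and 299 CPM in astrocytes. Cox6a1, the common isoform of subunit VIa, was at 485, 390.0 and 383 CPM in DRG cultures, 272, 274 and 409 CPM in OPC and 114, 176 and 173 CPM in astrocytes. Both were lowest in astrocytes without overlap. The log2 fold changes of DRG cultures over astrocytes were 0.88 ± 0.18 for Cox4i1 (adjusted p = 0.00234) and 1.44 ± 0.24 for Cox6a1 (adjusted p = 0.000815). Cox8a, the common isoform of subunit VIII and the most abundant complex IV gene per length in DRG cultures and OPC (in astrocytes Cox4i1 was above it), was at 450.3, 393 and 387 CPM in DRG cultures, 409, 448 and 735 CPM in OPC and 168, 217 and 248 CPM in astrocytes. Its log2 fold change was 0.96 ± 0.25 in DRG cultures over astrocytes (adjusted p = 0.0091) and 1.33 ± 0.25 in OPC over astrocytes (adjusted p = 0.00231; 0.87 without OPC replicate 3). Cox7a2, the common subunit VIIa isoform, Cox6b1, Cox7b and Ndufa4, now counted with complex IV, were higher in DRG cultures over astrocytes by 1.05, 1.11, 1.03 and 1.20 log2 (adjusted p = 0.000909, 0.00283, 0.00122 and 0.00105 in that order).

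Each cell type showed a different set of the restricted isoforms, all far below their common partners. Cox4i2, the subunit IV isoform known in mice from lung and the oxygen-sensing carotid body, lies at chr2:152753916-152765039 (GRCm38.p6). It was at 22.8, 55.5 and 25.1 CPM in DRG cultures, 0.13, 0.10 and 0.12 CPM in OPC and 1.62, 0.57 and 1.30 CPM in astrocytes. No groups overlapped, and DRG replicate 2 was above the other 2 DRG libraries. Cox4i2 was higher in DRG cultures by 4.88 ± 0.52 log2 (29.5-fold) against astrocytes (adjusted p = 5.59e-05; 4.37 without DRG replicate 2) and by 8.15 ± 0.62 (284-fold) against OPC (adjusted p = 1.2e-05; 7.63 without DRG replicate 2). Its share of the reads per length of Cox4i1 and Cox4i2 was 3.93, 9.73 and 4.55% in DRG cultures, on average 0.0214% in OPC and 0.403% in astrocytes. Cox4i2 overlaps Bcl2l1, whose several transcripts leave only transcript-specific reads (1.22 to 4.03 CPM in DRG cultures, 1.16 to 1.85 CPM in OPC and 1.66 to 2.35 CPM in astrocytes), so its level is not known here, and reads shared by both genes were not tested. Cox4i2 is also known from brain pericytes. The 14 fibroblast and mural genes summed to 543, 248 and 498 CPM in DRG cultures (9 genes with a mean of at least 1 CPM), 3.82 to 21.0 CPM in OPC (1 gene) and 1161 to 9750 CPM in astrocytes (6 genes). Of its pericyte genes, Rgs5 was at 1.52, 2.02 and 6.17 CPM in DRG cultures, Kcnj8 and Higd1b were at most 0.15 and 0.13 CPM, and Abcc9 had 0 counts in all 9 libraries, which is not read as absence. The part of these cells in the Cox4i2 level was not tested.

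Cox6a2 and Cox8b, the subunit VIa and VIII isoforms known from heart and skeletal muscle, were detected mainly in OPC. Cox6a2, at chr7:128205435-128206366, was at 0.41, 0.19 and 0.077 CPM in DRG cultures, 4.18, 3.15 and 12.5 CPM in OPC and 0.23, 0.047 and 0.055 CPM in astrocytes. Every OPC library was above every other library, with replicate 3 the highest. Itgad, which overlaps Cox6a2, was at 0 to 0.026 CPM in DRG cultures, 0.045 to 0.72 CPM in OPC and 0.36 to 0.43 CPM in astrocytes. Pooled counts were 24 in DRG cultures, 862 in OPC and 16 in astrocytes, a ratio of 30.7 for OPC over DRG cultures (95% counting interval 20.5 to 48.2) and 52.3 for OPC over astrocytes (32.0 to 91.9). Without OPC replicate 3 these ratios were 17.6 and 29.9. In the fit, Cox6a2 gave -4.90 ± 0.86 log2 for DRG cultures over OPC (adjusted p = 0.001; -3.80 without OPC replicate 3) and 5.81 ± 0.90 for OPC over astrocytes (adjusted p = 0.000761; 4.81 without it). Cox8b, at chr7:140898942-140900446, had 0 counts in the 3 DRG libraries, 263 counts in OPC (3.13, 0.49 and 2.38 CPM) and 1 count in astrocytes. OPC were therefore at least 74.9-fold higher than DRG cultures, against a floor of 3 counts over the 3 DRG libraries, and the ratio of OPC over astrocytes was 255 (95% counting interval 45.4 to 10121). Adjusted p was 0.000855 and 0.00143 for these comparisons of Cox8b. Cox6a2 and Cox8b passed the low-count filter only through OPC, the group where they are high. Their p-values therefore give no independent support for that pattern. The share of Cox6a2 in subunit VIa, per length, averaged 1.58 ± 0.816% in OPC, and that of Cox8b in subunit VIII 0.605 ± 0.504% (SD, n = 3). The 11 muscle genes on the list summed to 5.96 to 6.29 CPM in DRG cultures, 2.57 to 2.79 CPM in OPC and 1.43 to 2.78 CPM in astrocytes. In DRG cultures Chrna1 alone was at 4.09, 5.22 and 5.40 CPM, most of that sum. In OPC the muscle genes Acta1, Tnnt1, Tnnt3 and Mb had 0 counts, and Tnnt3 had 0 counts in the other cell types too. Other genes of the list had counts in OPC: Myh3 81, Chrna1 71, Des 54, Myod1 5, Myog 4 and Ckm 4. Actc1, a heart muscle actin, was at 1.03, 0.98 and 1.15 CPM in OPC, with 142 counts there, 1 in DRG cultures and 26 in astrocytes. The part of muscle cells in the Cox6a2 and Cox8b levels was not tested.

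Cox7a1, the heart and skeletal muscle isoform of subunit VIIa, had yet another pattern. It was at 2.77, 3.71 and 1.81 CPM in DRG cultures, 0.40, 0.20 and 0.38 CPM in OPC and 1.92, 3.37 and 4.26 CPM in astrocytes. OPC lay below all other libraries, and DRG cultures and astrocytes overlapped. The log2 fold change of Cox7a1 was 3.06 ± 0.48 for DRG cultures over OPC (adjusted p = 0.000562) and -3.26 ± 0.49 for OPC over astrocytes (adjusted p = 0.000622). Its share of subunit VIIa, per length, averaged 1.99 ± 0.764% in DRG cultures, 0.198 ± 0.0581% in OPC and 4.50 ± 1.43% in astrocytes (SD, n = 3 each). Cox6b2, known from testis and measured here by transcript-specific reads, was at 0.30, 0.042 and 0.077 CPM in DRG cultures, 0.11, 0.33 and 0.22 CPM in OPC and 2.09, 0.43 and 0.83 CPM in astrocytes, highest in the astrocyte library rich in microglia genes. Its log2 fold change of -3.06 ± 0.85 in DRG cultures over astrocytes (adjusted p = 0.0117) missed the threshold without DRG replicate 3 (adjusted p = 0.0501), and -2.34 ± 0.79 in OPC over astrocytes (adjusted p = 0.0329) missed it without astrocytes replicate 1 (-1.50, adjusted p = 0.129) or 3 or any OPC library. Ndufa4l2, a paralog of Ndufa4 known as a hypoxia-induced gene, was at 2.98, 1.07 and 1.16 CPM in DRG cultures, 0.49, 0.61 and 1.11 CPM in OPC and 0.11, 0.095 and 0.41 CPM in astrocytes. It was higher in DRG cultures than in astrocytes by 3.08 ± 0.71 log2 (adjusted p = 0.00452), while OPC over astrocytes gave 1.85 ± 0.69 (adjusted p = 0.0493; 1.28 and 0.198 without OPC replicate 3, 2.78 without astrocytes replicate 3). Ndufa4l2 overlaps Shmt2, whose transcript-specific reads, not its whole level, were at 3.96 to 5.19 CPM in DRG cultures, 11.0 to 35.8 CPM in OPC and 2.78 to 5.92 CPM in astrocytes. Cox8c and Cox7b2 were at most 0.094 and 0.34 CPM in any library and were not tested, nor was Cox7a2l, which had at most 9 transcript-specific counts in a library.

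**Figure D4:**
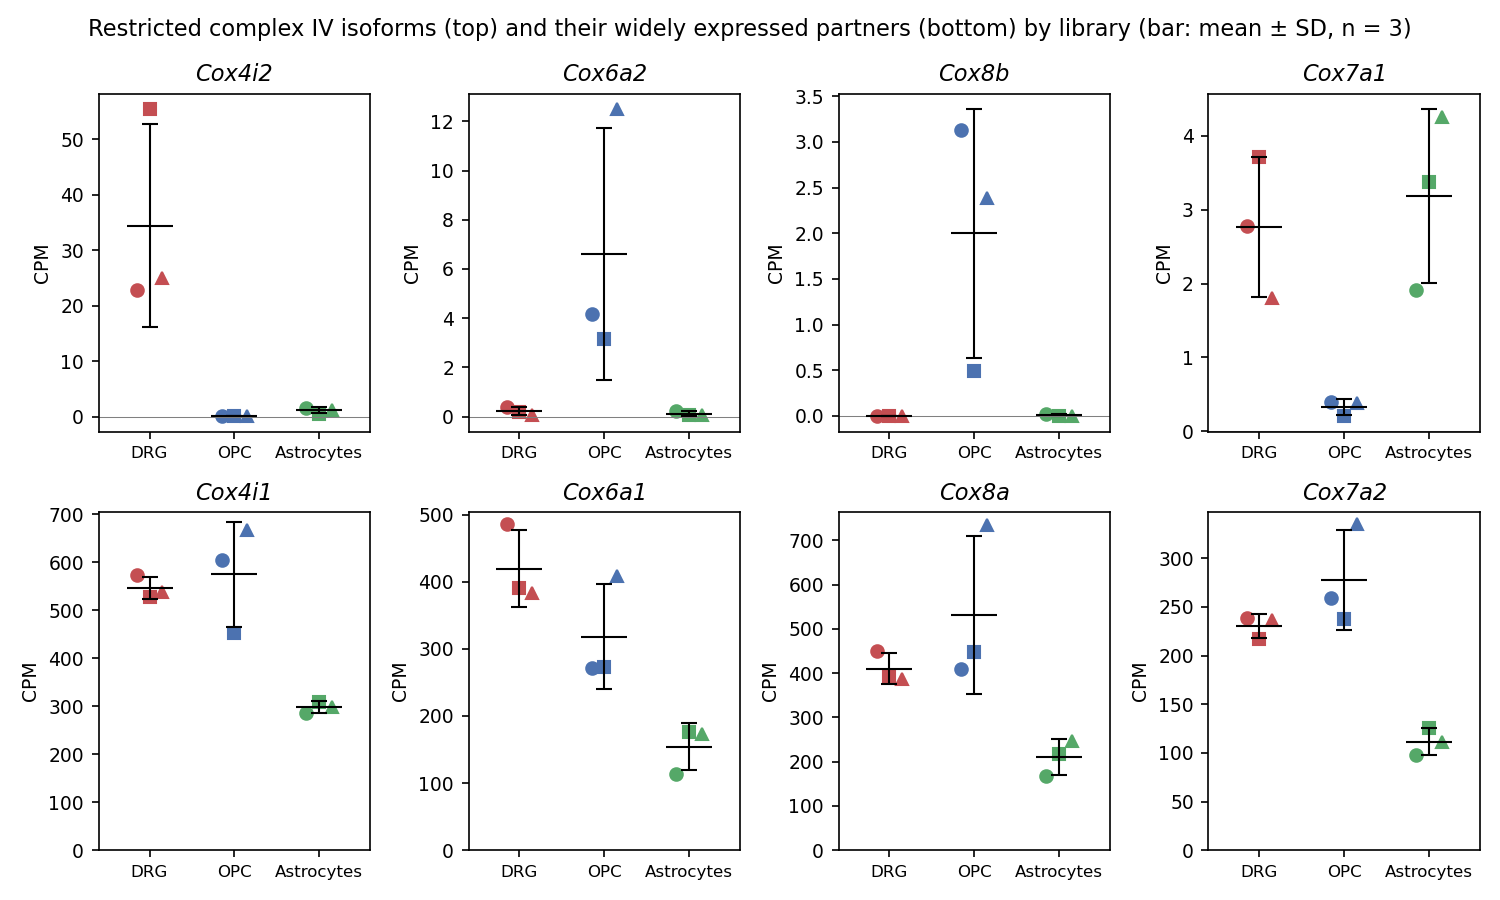
Level in CPM of the restricted complex IV isoforms Cox4i2, Cox6a2, Cox8b and Cox7a1 (top) and of their common partners Cox4i1, Cox6a1, Cox8a and Cox7a2 (bottom) in DRG cultures, OPC and astrocytes; points are libraries and bars mean ± SD (n = 3). Cox4i2 is highest in DRG cultures, Cox6a2 and Cox8b in OPC, and Cox7a1 is lowest in OPC, while all 4 common partners are lowest in astrocytes.

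The promoter letters of Cox8a and its muscle counterpart Cox8b differ. Shown are RefSeq windows of GRCm38.p6 from 250 bases before to 50 bases after the start the table gives, for Cox8a (chr19:7217567-7217866, minus strand) and Cox8b (chr7:140900397-140900696, minus strand), and for Cox6a1 (chr5:115348909-115349208, minus strand), another widely expressed subunit. Capitals mark the searched motifs: that of nuclear respiratory factor 1 (NRF1), GCGCA and GCGC with any 1 base between them, CCGGAAG, of ETS factors such as Gabpa, and CAGCTG, an E-box form, each sought on both strands, with no base in more than 1 motif.
Cox8a: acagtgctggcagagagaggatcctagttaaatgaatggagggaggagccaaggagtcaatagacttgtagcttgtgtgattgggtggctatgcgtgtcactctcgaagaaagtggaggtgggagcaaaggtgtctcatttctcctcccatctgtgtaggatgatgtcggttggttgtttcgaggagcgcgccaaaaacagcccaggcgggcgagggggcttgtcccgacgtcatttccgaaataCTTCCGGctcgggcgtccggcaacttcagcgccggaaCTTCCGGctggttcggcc
Cox8b: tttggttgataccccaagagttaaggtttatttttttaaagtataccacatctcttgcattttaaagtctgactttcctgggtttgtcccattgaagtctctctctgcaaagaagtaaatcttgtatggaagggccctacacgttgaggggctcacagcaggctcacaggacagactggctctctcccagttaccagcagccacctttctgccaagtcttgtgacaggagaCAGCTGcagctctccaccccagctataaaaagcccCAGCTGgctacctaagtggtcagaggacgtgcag
Cox6a1: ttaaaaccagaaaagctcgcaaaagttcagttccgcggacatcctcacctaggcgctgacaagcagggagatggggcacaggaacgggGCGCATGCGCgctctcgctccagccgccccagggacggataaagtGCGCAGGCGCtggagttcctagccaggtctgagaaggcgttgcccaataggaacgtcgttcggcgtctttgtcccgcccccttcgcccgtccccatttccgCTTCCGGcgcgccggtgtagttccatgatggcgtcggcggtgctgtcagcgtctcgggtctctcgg
Cox8a holds 2 ETS motifs, Cox8b 2 E-boxes and neither of the others, and Cox6a1 2 NRF1 motifs and 1 ETS motif. Cox6a1 does not stand for all widely expressed subunits of complex IV. The window of the common Cox6b1 holds 1 ETS motif. Those of the common Cox5a, Cox5b, Cox7a2, Cox7b, Cox7c and Ndufa4 and of the muscle isoform Cox7a1 hold 0 of the 3 motifs each. Windows were found for 70 of the 87 subunit and cytochrome c genes. The NRF1 motif was in 22.9% of the 70, against 4.78% of all 27025 windows and 9.48% of those of tested genes. The ETS motif was in 22.9%, against 9.12% and 16.3%, and the E-box in 8.57%, against 16.1% and 15.6%. These matches describe letters, not bound sites.

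ATP synthase held the most abundant genes of the whole set. Atp5b, the catalytic beta subunit and the highest per length, was at 2453, 2215 and 2307 CPM in DRG cultures, 2159, 2511 and 3462 CPM in OPC and 949, 1351 and 1407 CPM in astrocytes. Atp5a1, the alpha subunit beside it in the head, was at 1657, 1595 and 1459 CPM in DRG cultures, 1749, 1859 and 2477 CPM in OPC and 1001, 983 and 1061 CPM in astrocytes. Both genes were lowest in astrocytes without overlap. The log2 fold changes in DRG cultures over astrocytes were 0.91 ± 0.24 for Atp5b (adjusted p = 0.00913) and 0.63 ± 0.19 for Atp5a1 (adjusted p = 0.017; 0.37 and 0.125 with library size alone). In OPC over astrocytes they were 1.13 ± 0.24 (adjusted p = 0.00398) and 1.00 ± 0.19 (adjusted p = 0.00226). Atp5d, the delta subunit of the central stalk, was at 389.5, 426 and 386 CPM in DRG cultures, 246, 285 and 429 CPM in OPC and 136, 156 and 185 CPM in astrocytes. It was higher in DRG cultures than in astrocytes by 1.33 ± 0.23 log2 (adjusted p = 0.000927). Atp5d and Atp5a1 were picked after their values were seen.

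Against this, Atp5e and Atp5g2 were lowest in DRG cultures. Atp5e, the epsilon subunit that sits beside delta in the stalk (chr2:174461075-174464101), was at 61.6, 62.3 and 75.0 CPM in DRG cultures, 189.9, 167 and 235 CPM in OPC and 124, 109 and 113 CPM in astrocytes. No groups overlapped, with DRG cultures lowest. Atp5e gave -0.80 ± 0.17 log2 over astrocytes (adjusted p = 0.00334) and -1.58 ± 0.18 over OPC (adjusted p = 8.08e-05; -1.01 with the length trend removed), and 0.77 ± 0.17 in OPC over astrocytes (adjusted p = 0.00526; 0.47 without OPC replicate 3).

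The proton-carrying c ring is made from Atp5g1, Atp5g2 and Atp5g3, which encode the same mature protein behind different targeting sequences. Atp5g2 (chr15:102662868-102671047) was at 96.9, 120.1 and 110.3 CPM in DRG cultures, 489, 441 and 630.3 CPM in OPC and 161, 187 and 176 CPM in astrocytes. No groups overlapped, with OPC highest. Atp5g2 was 4.77-fold lower in DRG cultures than in OPC (log2 fold change -2.25 ± 0.19, adjusted p = 1.67e-05) and gave -0.68 ± 0.18 over astrocytes (adjusted p = 0.00944), and OPC over astrocytes gave 1.57 ± 0.18 (adjusted p = 0.000176). Atp5g3 (chr2:73908447-73912464) was at 312, 343 and 315 CPM in DRG cultures, 386, 447 and 603 CPM in OPC and 174, 239 and 249 CPM in astrocytes, also without overlap. Its log2 fold change in DRG cultures was 0.55 ± 0.21 over astrocytes (adjusted p = 0.0474), a call lost without any 1 of the astrocyte or DRG libraries or OPC replicate 2 (adjusted p = 0.0624 to 0.141), and -0.57 ± 0.21 over OPC (adjusted p = 0.0439; -0.12 without OPC replicate 3), lost without any 1 DRG library, OPC replicate 2 or 3 or astrocytes replicate 2 or 3 (adjusted p = 0.0544 to 0.621). Of the reads per length of Atp5g2 and Atp5g3 together, Atp5g2 took 24.7 ± 1.29% in DRG cultures, 51.6 ± 3.25% in OPC and 43.9 ± 3.36% in astrocytes (SD, n = 3 each).

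Atp5g1 could be read only through transcript-specific reads, and its 2 transcripts differed in their balance. It was at 37.7, 37.4 and 37.8 CPM in DRG cultures, 24.9, 25.2 and 33.3 CPM in OPC and 11.6, 12.0 and 17.4 CPM in astrocytes, without overlap. The log2 fold change in DRG cultures over astrocytes was 1.46 ± 0.23 (adjusted p = 0.000527). One transcript took 60.1, 56.3 and 55.3% of these reads in DRG cultures, 9.32, 11.8 and 10.5% in OPC and 33.5, 42.4 and 39.0% in astrocytes. The 3 cell types did not overlap in this share, which was picked after its values were seen and was not tested, and the gene's own fold changes mix both transcripts.

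The promoters of Atp5g2 (chr15:102670998-102671297, minus strand) and Atp5g3 (chr2:73911277-73911576, minus strand) are shown because the genes' products are the same and their levels ran apart. The Atp5g3 window lies inside the gene's span given above and not at its outer end, so it belongs to an inner start. Capitals mark the NRF1 motif.
Atp5g2: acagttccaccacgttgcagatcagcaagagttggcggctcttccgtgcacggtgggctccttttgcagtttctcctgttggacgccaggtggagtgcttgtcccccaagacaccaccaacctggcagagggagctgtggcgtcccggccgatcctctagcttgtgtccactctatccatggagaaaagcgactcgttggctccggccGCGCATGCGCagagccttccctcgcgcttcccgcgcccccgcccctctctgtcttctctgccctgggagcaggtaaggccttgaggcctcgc
Atp5g3: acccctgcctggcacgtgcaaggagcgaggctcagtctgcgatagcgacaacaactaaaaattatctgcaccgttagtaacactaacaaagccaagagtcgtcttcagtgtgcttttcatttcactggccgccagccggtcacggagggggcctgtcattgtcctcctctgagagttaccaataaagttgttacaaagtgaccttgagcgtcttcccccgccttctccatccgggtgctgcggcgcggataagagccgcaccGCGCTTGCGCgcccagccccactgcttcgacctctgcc
Each holds 1 match, and the ETS and E-box letters are in neither window.

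**Figure D5:**
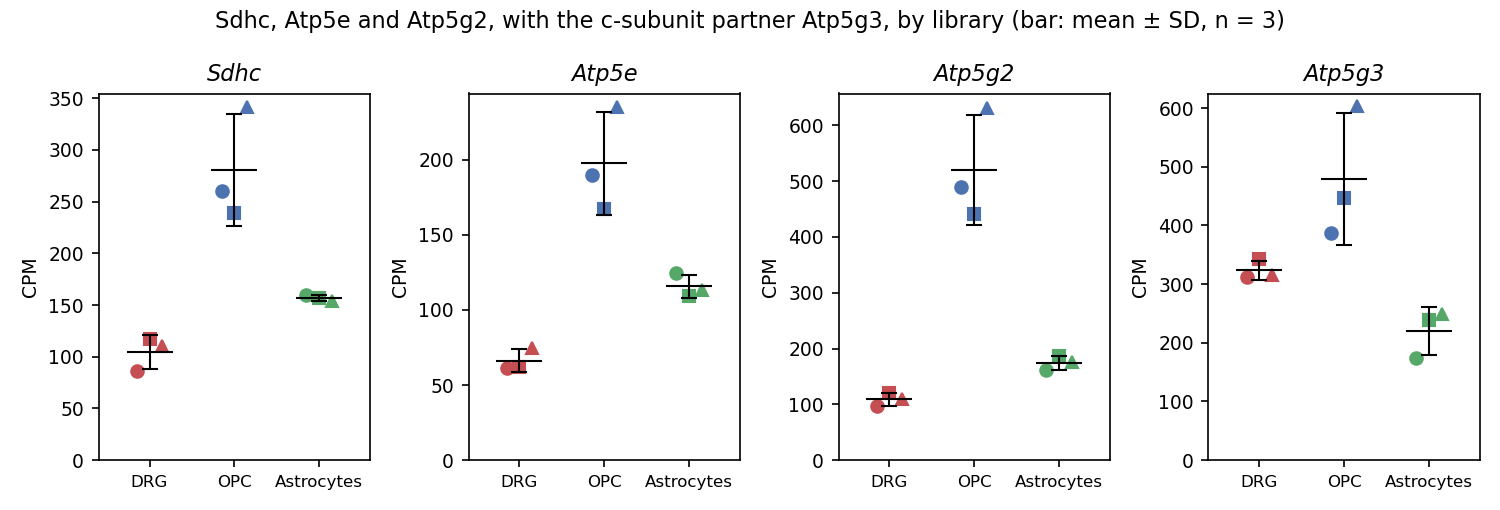
Level in CPM of Sdhc, Atp5e, Atp5g2 and Atp5g3 in DRG cultures, OPC and astrocytes; points are libraries and bars mean ± SD (n = 3). Sdhc, Atp5e and Atp5g2 are lowest in the 3 DRG libraries, while Atp5g3 is lowest in the 3 astrocyte libraries.

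The assembly factors of complex I help build it and are not part of it. Of 8, 2 were called higher in DRG cultures than in astrocytes (25%, against 27.4% of all genes, and 5 genes with DESeq2). Against OPC, 2 were higher and 2 lower in DRG cultures (25% each, against 28.4 and 31.1%). In OPC, 3 were higher than in astrocytes (37.5%, against 26.3%). They summed to 245 ± 9.44 CPM in DRG cultures, 202 ± 2.20 CPM in OPC and 170 ± 9.11 CPM in astrocytes (SD, n = 3 each). Ndufaf5, which modifies the core subunit Ndufs7, was at 38.5, 48.1 and 44.7 CPM in DRG cultures, 27.9, 31.9 and 34.7 CPM in OPC and 12.6, 18.0 and 17.1 CPM in astrocytes. It was higher in DRG cultures than in astrocytes by 1.46 ± 0.21 log2 (adjusted p = 0.00032), with no overlap between the 3 types. Ndufaf7, a methyltransferase of the mitochondrial matrix, was at 61.6, 63.5 and 66.2 CPM in DRG cultures, 29.3, 20.5 and 23.6 CPM in OPC and 48.1, 24.6 and 31.6 CPM in astrocytes. DRG cultures were above all glia. Ndufaf7 gave 1.38 ± 0.26 log2 for DRG cultures over OPC (adjusted p = 0.00155) and 0.87 ± 0.26 over astrocytes (adjusted p = 0.0156; 0.0507 without astrocytes replicate 2 and 0.0592 without replicate 3). Ndufaf2, a late-acting factor, gave -0.94 ± 0.20 for DRG cultures over OPC (adjusted p = 0.00342; -0.61 without OPC replicate 3). Ndufaf7 and Ndufaf2 were picked after their values were seen. The pseudogene Ndufs5-ps was at 67.9, 72.9 and 73.5 CPM in DRG cultures, 36.8, 49.5 and 90.7 CPM in OPC and 24.9, 41.6 and 20.2 CPM in astrocytes, against 1.76 to 4.76 CPM for Ndufs5 over the 9 libraries. Reads of the gene and of its copy cannot be told apart in these counts, so neither level stands for Ndufs5.

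Of related genes outside the chain, the 17 of pyruvate dehydrogenase and the citric acid cycle had 12 higher and 1 lower in DRG cultures than in astrocytes (70.6 and 5.88%, against 27.4 and 32.8% of all genes), 7 higher and 3 lower than in OPC (41.2 and 17.6%, against 28.4 and 31.1%), and 8 higher in OPC than in astrocytes (47.1%, against 26.3%; 3 genes without OPC replicate 3), with 0 lower (0 with DESeq2 and 0 at an unadjusted p under 0.05). Suclg2, the GTP-forming subunit of succinyl-CoA synthetase, was at 24.1, 12.9 and 6.45 CPM in DRG cultures, 127, 103 and 105 CPM in OPC and 219.9, 132 and 151 CPM in astrocytes. Sucla2, its ATP-forming alternative, was at 342, 366 and 391 CPM in DRG cultures, 127, 129 and 75.2 CPM in OPC and 125, 112 and 118 CPM in astrocytes. DRG cultures lay apart from both glia in both genes, low for Suclg2 and high for Sucla2, which was picked after its values were seen. The log2 fold changes of DRG cultures over astrocytes were -3.54 ± 0.45 for Suclg2 (adjusted p = 0.000158) and 1.63 ± 0.22 for Sucla2 (adjusted p = 0.000214). Ogdh, the first enzyme of the oxoglutarate dehydrogenase complex, read only through transcript-specific reads, was higher in DRG cultures by 3.10 log2 over astrocytes and 3.91 over OPC (adjusted p = 0.000447 and 0.000152). In OPC over astrocytes, Dlst, a subunit of the same dehydrogenase as Ogdh, was higher by 0.82 log2 (adjusted p = 0.00178).

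Among 11 tested genes that carry adenine nucleotides or energy across membranes, 4 were higher and 3 lower in DRG cultures than in astrocytes (36.4 and 27.3%, against 27.4 and 32.8% of all genes), 3 higher and 4 lower than in OPC (27.3 and 36.4%, against 28.4 and 31.1%), and 4 higher and 2 lower in OPC than in astrocytes (36.4 and 18.2%, against 26.3 and 25.5%). Ckmt1, the mitochondrial creatine kinase, was at 438, 243 and 191 CPM in DRG cultures, 4.94, 20.0 and 14.2 CPM in OPC and 3.95, 6.10 and 6.36 CPM in astrocytes, a log2 fold change of 5.73 ± 0.59 in DRG cultures over astrocytes (adjusted p = 4.55e-05). Ckb, the cytosolic creatine kinase, was at 402, 749 and 795 CPM in DRG cultures, 3805, 2665 and 4832 CPM in OPC and 3509, 3817 and 3827 CPM in astrocytes, and gave -2.54 ± 0.32 in DRG cultures over OPC (adjusted p = 0.00016). The 2 creatine kinases thus ran opposite ways between DRG cultures and glia. The ADP/ATP carriers also parted: Slc25a4 averaged 1649 ± 387 CPM in DRG cultures, 908 ± 126 CPM in OPC and 607 ± 84.2 CPM in astrocytes, and Slc25a5 averaged 361 ± 47.3 CPM in DRG cultures, 1501 ± 269 CPM in OPC and 412 ± 61.5 CPM in astrocytes (SD, n = 3 each). Slc25a4 was higher in DRG cultures than in astrocytes by 1.44 ± 0.23 log2 (adjusted p = 0.000626), and Slc25a5 higher in OPC than in astrocytes by 1.87 ± 0.21 (adjusted p = 0.000149); both were picked after their values were seen. Slc25a31, the testis carrier, had 21 counts in DRG cultures, 2 in OPC and 68 in astrocytes, and its OPC over astrocyte call (adjusted p = 0.0151) was lost without OPC replicate 1 or 3; the ratio of pooled counts over library size, astrocytes over OPC, had a 95% counting interval of 9.33 to 295. Ucp2, an uncoupling protein also known from immune cells, was at 5.79, 8.23 and 6.76 CPM in DRG cultures, 2.55, 8.75 and 27.2 CPM in OPC and 260.4, 58.5 and 69.1 CPM in astrocytes, highest in the astrocyte library with the most microglia RNA, and its log2 fold change in DRG cultures over astrocytes was -4.22 ± 0.90 (adjusted p = 0.00297).

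Of 15 tested regulators of mitochondrial genes, 3 were higher and 4 lower in DRG cultures than in astrocytes (20.0 and 26.7%, against 27.4 and 32.8% of all genes), 2 higher and 5 lower than in OPC (13.3 and 33.3%, against 28.4 and 31.1%), and 4 higher and 1 lower in OPC than in astrocytes (26.7 and 6.67%, against 26.3 and 25.5%). Ppargc1b, a coactivator of mitochondrial biogenesis, was at 8.90, 6.95 and 6.25 CPM in DRG cultures, 4.47, 5.45 and 3.83 CPM in OPC and 0.75, 1.02 and 0.47 CPM in astrocytes, with no overlap, and was higher in DRG cultures than in astrocytes by 3.29 ± 0.38 log2 (adjusted p = 9.11e-05) and in OPC by 2.61 ± 0.37 (adjusted p = 0.000481). Its better known relative Ppargc1a, read only through transcript-specific reads, was at 0.17 to 0.88 CPM and passed the threshold in no comparison. The whole level of Ppargc1a is therefore not known here. Gabpa, the ETS factor named above, was at 41.0, 28.0 and 31.8 CPM in DRG cultures, 173, 151 and 76.4 CPM in OPC and 113, 116 and 108 CPM in astrocytes, lower in DRG cultures than in astrocytes (log2 fold change -1.74 ± 0.29, adjusted p = 0.000806). Nrf1, read only through transcript-specific reads, was at most 1.07 CPM and gave -1.46 ± 0.47 in DRG cultures over astrocytes (adjusted p = 0.0222), a call lost without astrocytes replicate 2 or 3 or DRG replicate 1 or 3. Tfam, which packages and transcribes mitochondrial DNA, was at 33.4, 36.2 and 37.5 CPM in DRG cultures, 74.8, 84.5 and 59.9 CPM in OPC and 51.6, 53.3 and 51.4 CPM in astrocytes, and was lower in DRG cultures than in OPC (log2 fold change -1.03 ± 0.17, adjusted p = 0.000715). Esrra, a nuclear receptor that works with the coactivators, was higher in OPC than in astrocytes by 0.84 ± 0.25 (adjusted p = 0.02; 0.51 and 0.139 without OPC replicate 3, and lost without astrocytes replicate 2 or 3). Nfe2l2, the regulator of antioxidant genes, was at 110.3, 102 and 109 CPM in DRG cultures, 39.6, 67.8 and 61.0 CPM in OPC and 491, 378 and 424 CPM in astrocytes, and gave -2.01 ± 0.22 in DRG cultures over astrocytes (adjusted p = 6.82e-05) and -2.94 ± 0.23 in OPC over astrocytes (adjusted p = 2.47e-05).

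Of 39 other assembly factors tested, 14 were higher and 2 lower in DRG cultures than in astrocytes (35.9 and 5.13%, against 27.4 and 32.8% of all genes), 7 higher and 8 lower than in OPC (17.9 and 20.5%, against 28.4 and 31.1%), and 15 higher and 2 lower in OPC than in astrocytes (38.5 and 5.13%, against 26.3 and 25.5%). Lrpprc, which stabilises mitochondrial messenger RNA, was at 227, 246 and 222 CPM in DRG cultures, 169, 145 and 103 CPM in OPC and 82.3, 96.0 and 83.5 CPM in astrocytes. Ttc19, a complex III factor read only through transcript-specific reads, averaged 7.11, 2.72 and 2.61 CPM in the same order. Both were higher in DRG cultures than in astrocytes, by 1.41 and 1.44 log2 (adjusted p = 0.000292 and 0.00143). Cox20, a chaperone of complex IV, averaged 10.7 ± 2.20 CPM in DRG cultures, 31.6 ± 2.85 CPM in OPC and 25.7 ± 0.80 CPM in astrocytes, and gave -1.57 in DRG cultures over OPC (adjusted p = 0.000252). Surf1, a complex IV factor read through transcript-specific reads, gave 1.92 in DRG cultures over OPC (adjusted p = 0.0129; 0.0503 without DRG replicate 3). Coa7 and Uqcc2, factors of complexes IV and III, were higher in OPC than in astrocytes by 1.41 and 1.39 log2 (adjusted p = 0.000595 and 0.0019).

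Of 15 tested hypoxia response genes, 5 were higher and 4 lower in DRG cultures than in astrocytes (33.3 and 26.7%, against 27.4 and 32.8% of all genes). Against OPC, 9 were higher and 1 lower in DRG cultures (60 and 6.67%, against 28.4 and 31.1%). In OPC, 8 were lower than in astrocytes (53.3%, against 25.5% of all genes) and 0 higher (0 with DESeq2 and 0 at an unadjusted p under 0.05). Ankrd37 was at 6.40, 24.4 and 11.3 CPM in DRG cultures, 1.81, 0.57 and 0.67 CPM in OPC and 0.73, 0.28 and 0.14 CPM in astrocytes, with DRG cultures above all glia (log2 fold change 5.15 ± 0.83 over astrocytes, adjusted p = 0.00062). The membrane carbonic anhydrase Car9 was at 0.47, 0.36 and 0.21 CPM in DRG cultures, 0.045, 0.12 and 0.19 CPM in OPC and 3.08, 4.87 and 10.9 CPM in astrocytes, the opposite order (log2 fold change -4.18 ± 0.65, adjusted p = 0.000528). P4ha2, a collagen prolyl hydroxylase, had 1847 counts in DRG cultures, 0 in OPC and 160 in astrocytes, so that DRG cultures were at least 720-fold above OPC, against a floor of 3 counts over the 3 OPC libraries. Ndrg1 was at 161, 196 and 32.8 CPM in DRG cultures, 0.63, 1.04 and 1.56 CPM in OPC and 339.9, 270.4 and 227 CPM in astrocytes, and gave 6.91 ± 0.72 for DRG cultures over OPC (adjusted p = 5.41e-05) and -8.02 ± 0.76 for OPC over astrocytes (adjusted p = 6.03e-05). Cox4i2 and Ndufa4l2, members also named as hypoxia genes in other tissues, had their highest means in DRG cultures. The part of hypoxia in their levels was not tested.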

How the data were processed

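The deposited values are raw counts of reads on each RefSeq transcript, which the authors made with TopHat2 and HTSeq on the mm10 genome, per the submitters' processing notes. RNA was extracted with TRIzol and libraries made with a stranded mRNA kit, per the labels' protocols. Versions, counting mode and strand setting are not given in the sources used here. Of all reads, 37.1 to 46.9% were unassigned. Of 33787 accessions, 33315 were named from RefSeq (GRCm38.p6) and 193 from GENCODE vM21, and counts were added per gene. Without a known strand setting, reads of the 20 members that overlap another gene may be shared.

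Counts of all 9 libraries were fitted together with edgeR 4.0.16 in R 4.3.3 (quasi-likelihood test, TMM, filterByExpr with a minimum count of 10, 6 residual degrees of freedom), with Benjamini-Hochberg adjustment over 14848 genes. SE is the size of the log2 fold change over the square root of F. Counting intervals are exact (scipy 1.17.1) and, like floors, cover counting error only. The code was tested on simulated data. Named genes were the isoform families, complex II, cytochrome c and c1, the most abundant gene per complex and length, the 8 largest non-overlapping called members per comparison, and per related list the 2 largest called genes with Ppargc1a, Nrf1, Esrra and Tfam; others are marked where given. Single values of some genes are not reported here. The members and lists were chosen with earlier results of these data known. Alternatives were DESeq2 1.42.0, other scalings, no low-count filter, the compared libraries alone, a 2-fold minimum, a length correction (lowess span 0.4), a replicate block and left-out libraries.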

Additional observations from a re-analysis of the deposited data

How the results depend on the processing

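Genes called higher in DRG cultures than in astrocytes numbered 42 to 64 when 1 library was left out, 35 with library size alone, 66 with the length trend removed and 22 with a 2-fold minimum, against 51; genes called lower numbered 3 to 6 and 2, against 5. Of these calls, 35 of 51 and 2 of 5 held under all 17 alternatives other than the 2-fold minimum. For DRG cultures over OPC, leaving out 1 library gave 7 to 22 genes higher and 12 to 24 lower. There, DESeq2 gave 13 higher, the length trend removed 18 higher and 13 lower, library size alone 37 lower, RLE factors 15 lower, a 2-fold minimum 8 lower, and leaving out astrocytes replicate 1 and OPC replicate 3 together 23 higher and 13 lower. For OPC over astrocytes, leaving out 1 library gave 53 to 72 higher and 2 to 4 lower, both libraries together 43 higher, and a 2-fold minimum 36 higher. Summed levels of the 96 genes ran from 17591 to 19032 CPM in DRG cultures, 16999 to 22770 CPM in OPC and 10693 to 11403 CPM in astrocytes with 1 library left out. In DRG cultures the sum was 18800 CPM with DESeq2 factors, 16239 CPM with library size alone, 18850 CPM with RLE factors, 20275 CPM with the length trend removed and 18798 CPM without both libraries; in OPC it was 16759 CPM without both libraries, and in astrocytes 12038 CPM with library size alone. The sign of single fold changes under the alternatives was checked for only part of the 96 genes. Among those checked, the log2 fold change of DRG cultures over astrocytes changed sign for 5 genes that were not called in this comparison: Cox7a1 (0.077 with the length trend removed, -0.47 to 0.057 with 1 library left out), Ndufb10 (-0.23 with library size alone, -0.13 to 0.13 with 1 library left out), Sdha (-0.17 with library size alone, -5.8e-05 to 0.24 with 1 library left out), Uqcrfs1 (-0.073 with library size alone) and Uqcrb (-0.11 with library size alone). The cause of these changes was not tested. The labels do not say that equal replicate numbers mark a pairing, and deviations of same-numbered libraries correlated by -0.04 to 0.11. With a replicate block, genes called higher and lower were 53 and 6 for DRG cultures over astrocytes, 8 and 25 for DRG cultures over OPC and 70 and 2 for OPC over astrocytes. Depth limits the restricted isoforms, which rest on as few as 0 to 24 counts in a cell type.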
